A study of Mus musculus with 6 samples.

Results

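The nuclear-encoded subunits of the mitochondrial respiratory chain and of the ATP synthase were examined in mouse leukaemia cells in which Cre recombinase either was or was not present. Members were defined by gene symbol, and the choice was made with earlier results of these data known. Taken in was every symbol starting with Ndufa, Ndufb, Ndufc, Ndufs, Ndufv, Uqcr, Cox4, Cox5, Cox6, Cox7, Cox8 or Atp5. Sdha, Sdhb, Sdhc, Sdhd and Cyc1 were added. The rule found 94 genes, of which 90 had a probe set (the group of array probes summarised into a single value) that the platform annotation assigns to that gene only. These 90 stand among 19938 genes measured in this way. Of the 90, 34 encode complex I subunits, 4 complex II, 9 complex III, 19 complex IV and 17 the ATP synthase. The other 7 (Ndufaf1 to Ndufaf7) share the Ndufa prefix but encode assembly factors of complex I, which are not part of the finished enzyme, so they were kept as a group of their own. Cox7c, Ndufb4, Ndufb4b and Ndufs5-ps had only probe sets shared with another gene, and they were not analysed here.

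Expression was measured on 6 Affymetrix arrays of total RNA from pre-B cells of the mouse strain 129P2/OlaHsd. All 6 samples carried BCR-ABL1, the fusion kinase of Philadelphia chromosome-positive acute lymphoblastic leukaemia, and were Ptpn6 +/fl, with 1 of the 2 alleles of the phosphatase gene Ptpn6 flanked by loxP sites. In 3 samples, labelled ERT2, the cells had been transduced with PMIP-ERT2, which carries the tamoxifen-binding receptor domain without a recombinase. In the other 3, labelled CRE-ERT2, they carried PMIP-CRE-ERT2, a Cre that tamoxifen activates. All 6 were kept for 2 days in 0.5 micromolar 4OH-tamoxifen, the active metabolite of tamoxifen. The comparison is therefore CRE-ERT2 against ERT2, and since no group with Cre and without a floxed allele was analysed here, loss of that allele and Cre activity itself cannot be told apart. Whether the 3 samples per group stem from separate mice or cultures is not stated in the labels, and the p-values therefore reflect sample-to-sample spread that may be technical.

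The respiratory chain passes electrons from NADH (complex I) and succinate (complex II) through coenzyme Q, complex III and cytochrome c to oxygen at complex IV. Complexes I, III and IV pump protons across the inner mitochondrial membrane, and the ATP synthase lets them flow back to make ATP. Complexes I, III, IV and the ATP synthase combine subunits from nuclear genes with a few encoded in mitochondrial DNA, and each complex needs dedicated assembly factors. Lymphocyte precursors draw on this system for ATP and for the aspartate and nucleotides that dividing cells require.

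Nuclear factors known to act on many of these genes are NRF1, the ETS factor GABP (also called NRF2) and YY1. Promoter windows of 250 bases before to 50 bases after a gene's start, from RefSeq on GRCm38.p6, were at hand for 73 of the 90 genes, in 78 windows. Both strands were searched for the letters TGCGCA (NRF1 core), CCGGAAG (ETS core) and AAGATGG (YY1 core). None of these motifs contains another. TGCGCA was in 24.4% of the members' windows and in 10.3% of the 19177 windows of all genes tested. CCGGAAG was in 23.1% against 12.1%, and AAGATGG in 12.8% against 6.25%. The median GC content of the windows was 58.0% against 57.3%. A match describes letters and does not show a bound site. Shown here, with motifs in capitals, are the stretch upstream of Ndufaf1, the member that passed the test, and those of 2 subunit genes that hold both the NRF1 and the ETS letters before their start. All 3 lie on the minus strand and are written in the direction of transcription, at chr2:119662840-119663084, chr5:115348959-115349208 and chr4:40279422-40279671.
Ndufaf1: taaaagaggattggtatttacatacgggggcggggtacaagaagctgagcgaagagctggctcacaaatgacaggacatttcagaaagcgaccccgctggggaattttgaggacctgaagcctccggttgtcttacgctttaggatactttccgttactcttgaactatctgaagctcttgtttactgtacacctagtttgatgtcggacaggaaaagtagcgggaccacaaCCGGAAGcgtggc
Cox6a1: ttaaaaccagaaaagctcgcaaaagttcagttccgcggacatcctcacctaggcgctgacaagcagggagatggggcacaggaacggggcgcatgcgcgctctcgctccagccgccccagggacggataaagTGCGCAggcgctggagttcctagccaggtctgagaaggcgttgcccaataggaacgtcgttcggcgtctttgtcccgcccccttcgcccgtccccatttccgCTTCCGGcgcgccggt
Ndufb6: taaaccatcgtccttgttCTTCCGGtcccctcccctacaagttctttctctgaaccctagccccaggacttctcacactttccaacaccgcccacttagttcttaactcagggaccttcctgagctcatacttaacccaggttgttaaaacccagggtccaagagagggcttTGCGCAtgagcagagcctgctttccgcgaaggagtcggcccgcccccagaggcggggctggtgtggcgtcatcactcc
The ETS letters end 6 bases before Ndufaf1 and 9 bases before Cox6a1, while in Ndufb6 they lie 225 bases away. The NRF1 letters lie 112 bases before Cox6a1 and 72 bases before Ndufb6.

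The arrays had medians of 7.90 to 7.98 on the log2 scale and correlated at 0.991 to 0.996 over probe sets. Ptpn6, the floxed gene, measured 11.34 ± 0.08 (SD, n = 3) in ERT2 and 11.27 ± 0.08 in CRE-ERT2, a difference of -0.07 with a 95% interval from -0.24 to 0.10 (limma, adjusted p = 0.759). No source used here says whether its probes lie in the floxed exons, so this value does not check the labels. Of 12 pre-B cell markers 11 were measured, and their mean log2 level was 11.88 to 12.01 on the 6 arrays. Of the 11, 9 had estimates above 0, with a median of 0.09. Among them Dntt rose by 0.48 (adjusted p = 0.00369 by limma) and Rag2 fell by 0.53 (adjusted p = 0.00426), and neither passed over all probe sets (0.0640 and 0.0911). The mean levels of the T cell, myeloid, erythroid and fibroblast marker lists were 7.31 to 7.47, 7.08 to 7.17, 8.43 to 8.56 and 7.34 to 7.62, and 0 of their 28 measured genes passed the test (limma, 1 of the 28 at an unadjusted p under 0.05).

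No subunit gene of the respiratory chain or the ATP synthase passed the test for a difference between the groups. Of the 83 subunit genes, 0 passed an adjusted p of 0.05 in limma, and 5 had an unadjusted p under 0.05. The single member that passed was the assembly factor gene Ndufaf1, which fell. With it, 1 of 90 members was called (1.11%), beside 4.58% of all genes tested. In the lower direction this is 1 member beside 2.28% of all genes, and in the higher direction 0 members beside 2.30%. At an unadjusted p under 0.05 there were 9 of 90 (10%), of which 8 were lower, beside 16.4% of all genes. The groups did not overlap (every array of one group above every array of the other) for 18 of 90 members (20.0%), beside 22.5% of all genes. Of these 18, 14 were lower in CRE-ERT2 (15.5% of all genes were) and 4 higher (6.92% of all genes were).

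The median difference over the 90 members was -0.03 on the log2 scale, as it was over all genes, and estimates ran from -0.47 for Ndufaf1 to 0.19 for Ndufa1. Estimates were below 0 for 54 members (60.0%) and for 61.1% of all genes. The median size of the difference regardless of sign was 0.0774 for members and 0.0755 for all genes, with median standard errors of 0.083 and 0.081. The 95% interval of limma lay within 0.5 log2 units of 0 (a 1.41-fold change) for 88 of 90 members. The exceptions were Ndufaf1 and Cox7a1. All 90 lay within 1 log2 unit. In bulk RNA, fewer cells of a kind and less RNA per cell cannot be told apart.

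**Figure D1:**
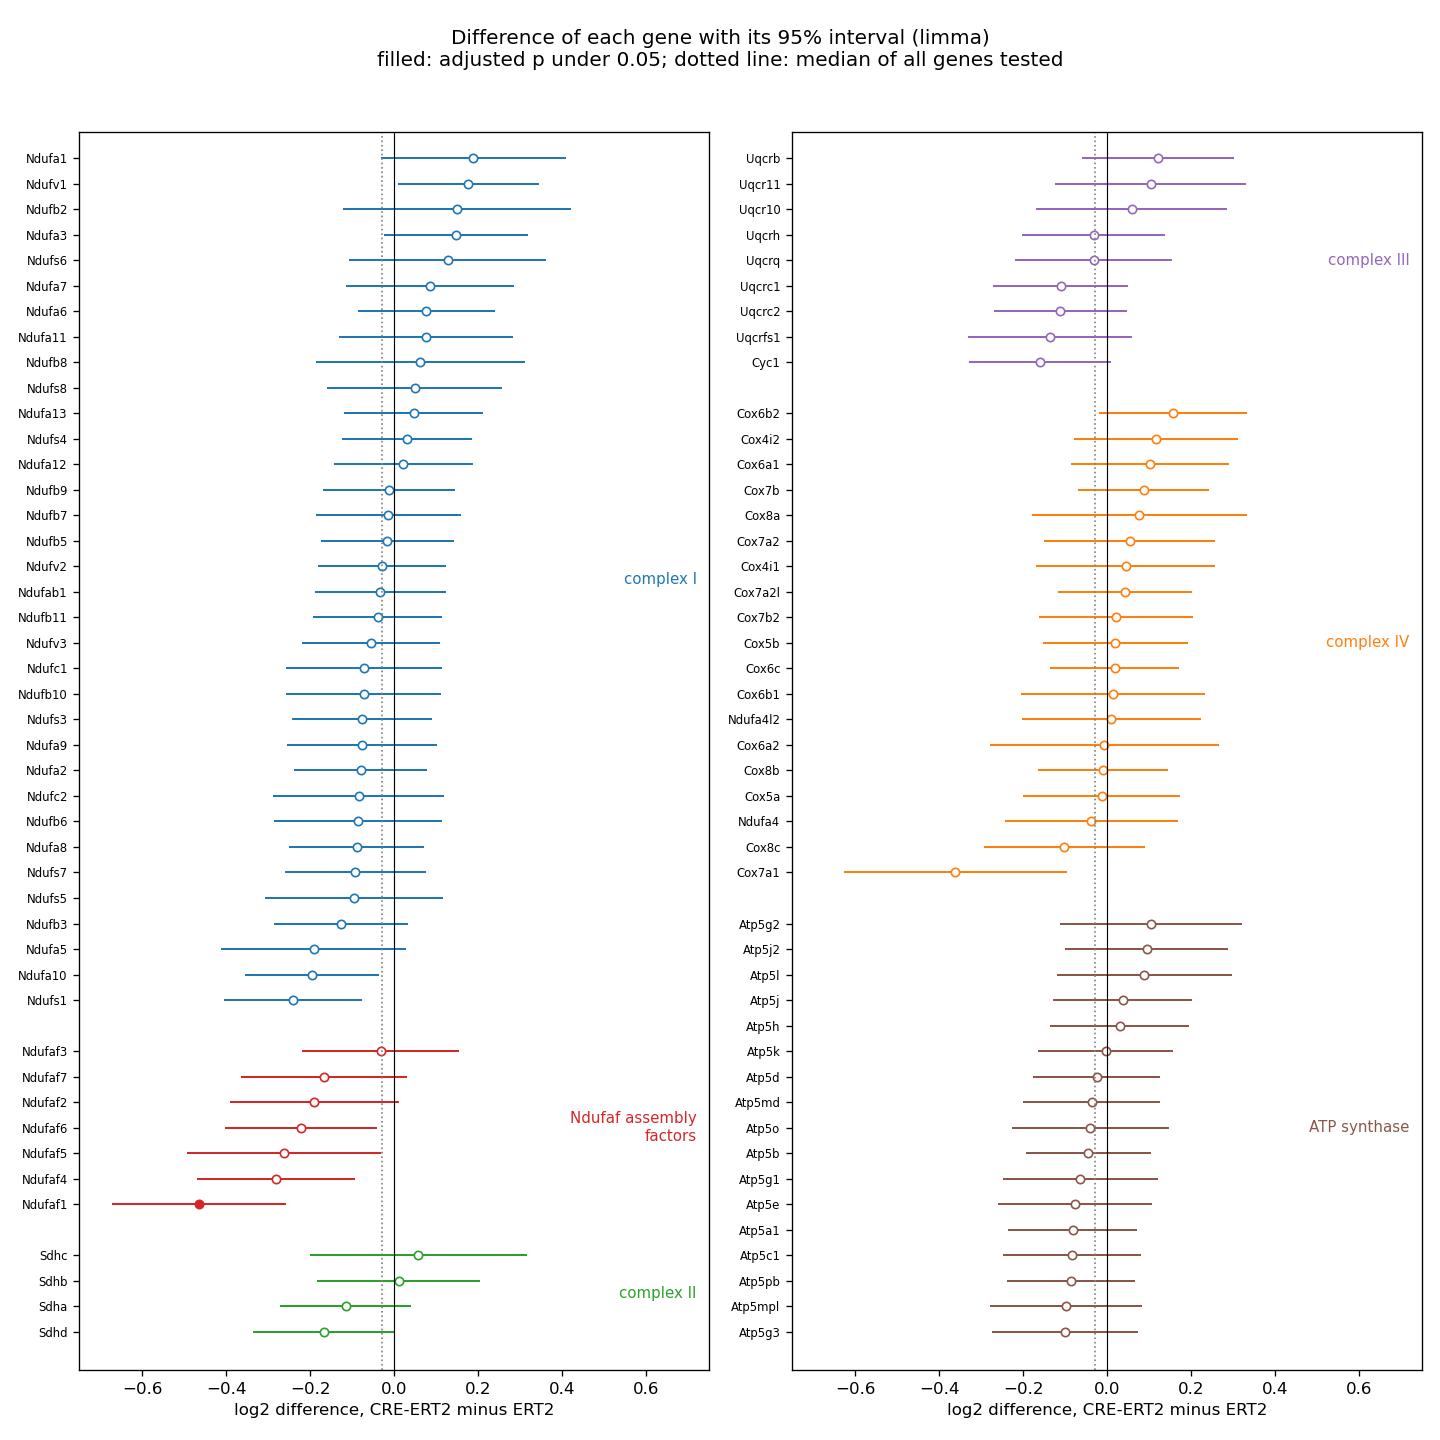
Log2 difference (CRE-ERT2 minus ERT2, horizontal axis) of each of the 90 genes with its 95% interval from limma, ordered within complexes. Only Ndufaf1, at -0.47, is filled (adjusted p under 0.05), and the dotted line is the median of all genes at -0.03.

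The subunit genes shared a pattern across arrays that did not follow the groups. For each gene its deviation from its own mean over the 6 arrays was taken. On ERT2 replicates 1, 2 and 3 the median deviation of the 90 members was -0.06, 0.04 and 0.07. On CRE-ERT2 replicates 1, 2 and 3 it was 0.05, -0.02 and -0.06. Members were thus low on ERT2 replicate 1 and CRE-ERT2 replicate 3, and high on ERT2 replicate 3. ERT2 replicate 1 was the lowest of the 6 arrays for 36 of 90 members (40.0%), but for 11.1% of all genes tested. For all genes that array more often held the highest value (31.3% of genes, against 15.6% of members).

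The balance of directions among the subunit genes moved with single arrays and with scaling. With all 6 arrays 47 of 83 subunit genes were lower and 36 higher in CRE-ERT2, with a median of -0.01. Without ERT2 replicate 1, 63 were lower and 20 higher, with a median of -0.06, and 0 passed the adjusted test (limma, 6 at an unadjusted p under 0.05). A further quantile normalization of the arrays gave 35 lower and 48 higher, with a median of 0.02, and again 0 called (limma, 6 at an unadjusted p under 0.05). Lower and higher estimates were evenly split, 41 to 42 with a median of 0.00, both without ERT2 replicate 3 and without CRE-ERT2 replicate 3.

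**Figure D2:**
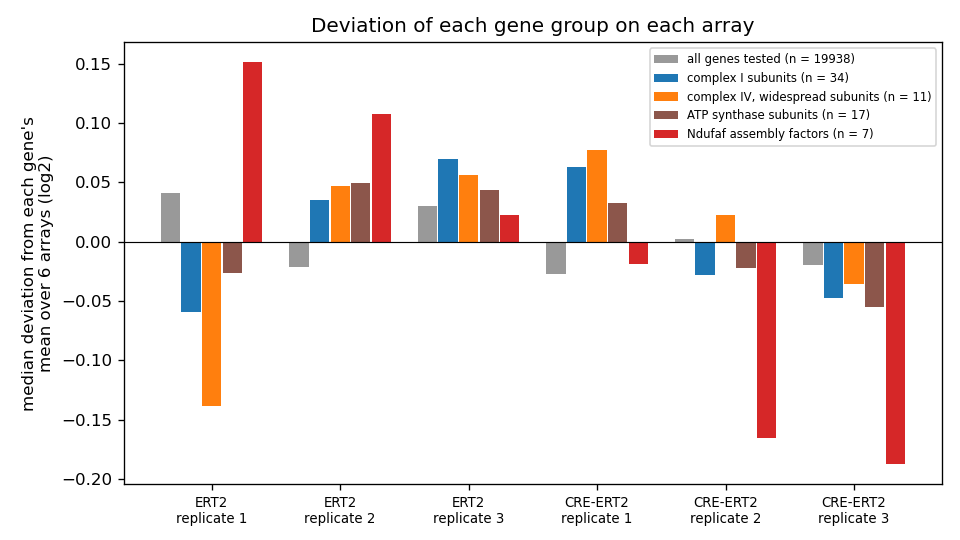
Median deviation (log2, vertical axis) of each gene group from its genes' own means on each of the 6 arrays. On ERT2 replicate 1 the 11 widespread complex IV subunits sit at -0.14 and the 34 complex I subunits at -0.06, while the 7 Ndufaf assembly factors sit at 0.15.

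Complex I, which oxidises NADH, had no subunit gene past the adjusted threshold. Of its 34 subunit genes 21 were lower and 13 higher, with a median of -0.03, and 3 had an unadjusted p under 0.05 in limma. The core subunits, which carry the flavin and the iron-sulphur clusters, had 6 measured genes, 4 lower and 2 higher. Among the 28 accessory genes 17 were lower and 11 higher. The 2 largest unadjusted signals in the core went opposite ways.

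Ndufs1 encodes the largest core subunit and holds iron-sulphur clusters of the electron path. It measured 11.40, 11.24 and 11.27 on ERT2 replicates 1 to 3 and 11.12, 11.02 and 11.05 on CRE-ERT2 replicates 1 to 3. All 3 CRE-ERT2 arrays lay below all 3 ERT2 arrays, yet the difference of -0.24 (SE 0.07, 95% interval -0.40 to -0.08) had an adjusted p of 0.0982 in limma. With a trended and robust variance, the adjusted p was 0.0332. Ndufv1 encodes the flavin-binding subunit where NADH gives up its electrons. Its ERT2 arrays were at 11.59, 11.62 and 11.61 and its CRE-ERT2 arrays at 11.89, 11.77 and 11.68, higher throughout and with a wider spread. The difference was 0.18 (95% interval 0.01 to 0.34) and the adjusted p 0.267 by limma.

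Ndufa10, an accessory subunit of the membrane arm, was lower on every CRE-ERT2 array. The ERT2 arrays read 12.53, 12.42 and 12.51 and the CRE-ERT2 arrays 12.36, 12.28 and 12.24. The difference was -0.20 (95% interval -0.35 to -0.04), with an adjusted p of 0.176 in limma and of 0.0353 with the trended and robust variance. Ndufa5, another accessory subunit, differed by -0.19 with overlapping groups (adjusted p = 0.383 by limma). The remaining complex I genes ran from -0.13 for Ndufb3 to 0.19 for Ndufa1. Ndufb6, whose promoter is printed above, differed by -0.09 with overlapping groups.

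Among the assembly factors that the rule takes in, all 7 Ndufaf genes had estimates below 0, with a median of -0.22 beside -0.03 for all genes. Of these, 1 passed the adjusted test (14.3%, beside 4.58% of all genes) and 4 had an unadjusted p under 0.05 (57.1%, beside 16.4%). The groups of 4 did not overlap (57.1%, beside 22.5%). Their median deviation was 0.15, 0.11 and 0.02 on ERT2 replicates 1 to 3 and -0.02, -0.17 and -0.19 on CRE-ERT2 replicates 1 to 3. The high ERT2 replicate 1 is the reverse of what the subunit genes showed on that array. Without it all 7 estimates were still below 0, with a median of -0.20. In each of 3 alternatives 6 of 7 were below 0: with quantile normalization, without ERT2 replicate 3 and without CRE-ERT2 replicate 3.

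Ndufaf1 encodes a chaperone-like protein of the MCIA complex, which helps build the membrane arm of complex I. It measured 11.27, 10.95 and 11.00 on the ERT2 arrays and 10.71, 10.51 and 10.61 on the CRE-ERT2 arrays. The lowest ERT2 array was above the highest CRE-ERT2 array. The means were 11.08 ± 0.17 and 10.61 ± 0.10 (SD, n = 3 each), a difference of -0.47 (SE 0.09, 95% interval -0.67 to -0.26) or 0.724 of the ERT2 level, with an adjusted p of 0.0124 in limma. The call was lost without ERT2 replicate 1 (adjusted p = 0.0537), without CRE-ERT2 replicate 3 (0.0712) and when all 35556 probe sets were tested (0.145). Its estimate was below 0 in each of the 14 alternatives that give a value per gene.

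Ndufaf4, an assembly factor of the early peripheral-arm intermediate, measured 10.35, 10.08 and 10.10 in ERT2 and 9.97, 9.87 and 9.84 in CRE-ERT2. The groups did not overlap, and the difference of -0.28 had an adjusted p of 0.0932 in limma and of 0.0442 with the trended and robust variance. Ndufaf6 was at 9.48, 9.62 and 9.34 against 9.24, 9.25 and 9.28, a difference of -0.22 (adjusted p = 0.173 by limma). Ndufaf5, a hydroxylase that modifies a core subunit, was at 8.45, 8.43 and 8.11 against 8.18, 7.89 and 8.13, with overlapping groups and a difference of -0.26. Its adjusted p of 0.224 in limma became 0.0406 without ERT2 replicate 3. Ndufaf2, Ndufaf7 and Ndufaf3 differed by -0.19, -0.17 and -0.03, with adjusted p of 0.332, 0.400 and 0.928 by limma.

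Assembly factors of complex I that carry other names were read from a separate list. Of its 11 names 10 were measured, 8 were below 0 and 2 above, with a median of -0.14, and 1 passed the test and was lower. That gene was Acad9, which works with Ndufaf1 in the MCIA complex and resembles the acyl-CoA dehydrogenases of fatty acid oxidation. It measured 10.88, 10.78 and 10.69 in ERT2 and 10.53, 10.40 and 10.37 in CRE-ERT2. No CRE-ERT2 array reached an ERT2 array. The difference was -0.35 (SE 0.08) with an adjusted p of 0.0241 by limma. This call was lost over all probe sets (adjusted p = 0.144), and also without ERT2 replicate 1, where the adjusted p was 0.0996. Leaving out CRE-ERT2 replicate 2 gave 0.0901, and leaving out CRE-ERT2 replicate 3 gave 0.140.

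Other MCIA genes are named here after their values were seen. Ecsit was at 10.06, 10.36 and 10.36 in ERT2 and 10.05, 9.96 and 9.90 in CRE-ERT2, a difference of -0.29 with an adjusted p of 0.106 in limma. Its adjusted p was 0.0472 with array weights, 0.0473 with the trended and robust variance and 0.0288 without ERT2 replicate 1. It passed in no other alternative that gives a value per gene. Timmdc1 differed by -0.19 (adjusted p = 0.196) and its groups did not overlap, while Tmem126b differed by -0.11 with overlapping groups (adjusted p = 0.643). Tmem186, on the same list of assembly factors, differed by -0.03 with overlapping groups (adjusted p = 0.921 by limma). Coa1, also on that list, was not analysed.

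**Figure D3:**
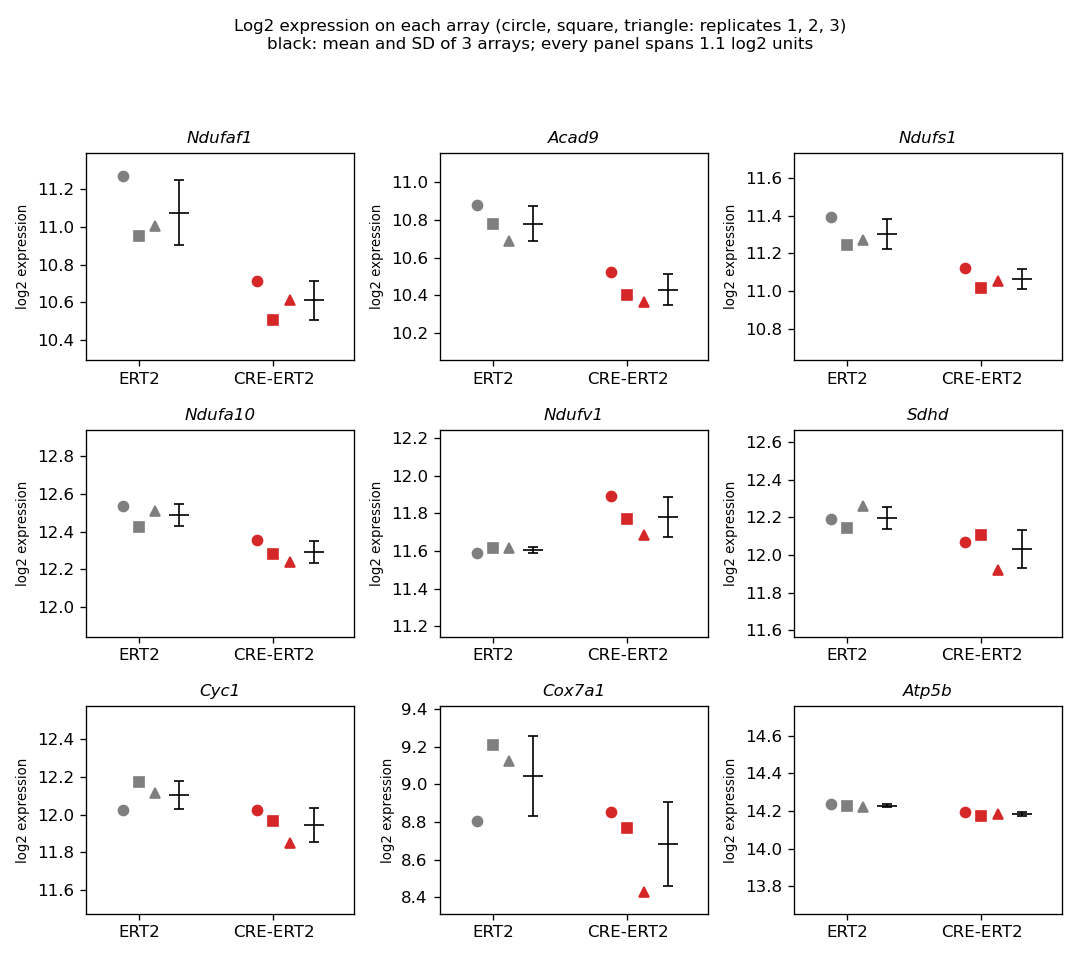
Log2 expression on each array (vertical axis) of 9 genes, with the mean and SD of the 3 arrays of each group in black. Ndufaf1 and Acad9 passed the adjusted test, Ndufv1 is the gene here that was higher in CRE-ERT2, and Cox7a1 overlaps between the groups.

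Complex II oxidises succinate and is encoded by nuclear genes alone. Its 2 catalytic subunits are Sdha, which binds the flavin, and Sdhb, which holds the iron-sulphur clusters. Sdha was at 12.81, 12.74 and 12.71 in ERT2 and 12.68, 12.64 and 12.60 in CRE-ERT2, lower on every array by a small amount (difference -0.12, adjusted p = 0.475 by limma). Sdhb differed by 0.01 (adjusted p = 0.982). The membrane anchors Sdhc and Sdhd had estimates of opposite sign. Sdhd was at 12.19, 12.14 and 12.26 against 12.07, 12.11 and 11.92, a difference of -0.17 with an adjusted p of 0.306 in limma. Sdhc was at 11.38, 11.85 and 11.90 in ERT2 and 11.81, 11.81 and 11.68 in CRE-ERT2. Its difference of 0.06 rests on ERT2 replicate 1, which lay below the other 5 arrays. Without that array all 4 complex II genes were lower in CRE-ERT2, with a median of -0.10 and 0 called (limma, 0 at an unadjusted p under 0.05).

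Complex III hands electrons from coenzyme Q to cytochrome c. Of its 9 genes 6 were lower and 3 higher, with a median of -0.03, and 0 passed the adjusted test or an unadjusted p of 0.05 in limma. Cyc1, the haem-carrying cytochrome c1, was at 12.03, 12.17 and 12.12 in ERT2 and 12.02, 11.96 and 11.85 in CRE-ERT2, so the groups met at their edges without overlapping. The difference was -0.16 (95% interval -0.33 to 0.01, adjusted p = 0.338 by limma). Uqcrfs1, the Rieske iron-sulphur protein that passes electrons to Cyc1, differed by -0.14 (adjusted p = 0.520). The large matrix-side proteins Uqcrc1 and Uqcrc2 both differed by -0.11 (adjusted p = 0.524 and 0.509). The 3 genes with estimates above 0 were Uqcrb at 0.12, Uqcr11 at 0.10 and Uqcr10 at 0.06, all small accessory subunits.

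Complex IV, cytochrome c oxidase, had the largest share of estimates above 0 among the complexes. Of 19 genes 13 were higher and 6 lower, with a median of 0.02, and 0 passed the adjusted test (limma, 1 at an unadjusted p under 0.05). Among the 11 subunits that most tissues express 9 were above 0, with a median of 0.04. ERT2 replicate 1 was the lowest array for 8 of these 11. Without it 8 of the 11 were below 0 and the median was -0.04. Without CRE-ERT2 replicate 1, 5 were below 0 and 6 above, with a median of 0.00. Without replicate 3 of either group all 11 were above 0. The direction of this group thus depends on single arrays. Cox8a shows the low ERT2 replicate 1 most plainly: the ERT2 arrays were at 12.77, 13.24 and 13.28 and the CRE-ERT2 arrays at 13.25, 13.12 and 13.15. Cox7b differed by 0.09 and was the widespread subunit whose groups did not overlap (adjusted p = 0.641 by limma).

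Complex IV is unusual in having alternative subunits made by separate genes, several of them favoured in heart, muscle, lung or testis. The 8 such genes measured had 4 estimates above and 4 below 0, with a median of 0.00. Cox7a1, the heart and muscle form, had the largest estimate of the complex. It measured 8.80, 9.21 and 9.12 in ERT2 and 8.85, 8.77 and 8.43 in CRE-ERT2. ERT2 replicate 1 lay among the CRE-ERT2 arrays, and the difference of -0.36 (95% interval -0.62 to -0.10) had an adjusted p of 0.130 in limma. Its widely expressed counterpart Cox7a2 differed by 0.05, and Cox7a2l, which helps join complexes into supercomplexes, by 0.04.

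The other isoform sets had smaller estimates. Cox4i1 differed by 0.04 and the lung-favoured Cox4i2 by 0.12. Cox6a1 differed by 0.10 and its muscle form Cox6a2 by -0.01. Cox6b1 differed by 0.01 and the testis form Cox6b2 by 0.16, with all 3 CRE-ERT2 arrays of Cox6b2 above the ERT2 arrays (adjusted p = 0.372 by limma). Cox8a, Cox8b and Cox8c differed by 0.08, -0.01 and -0.10. Ndufa4, named for complex I but now assigned to complex IV, differed by -0.04, and its relative Ndufa4l2 by 0.01. Adjusted p of limma for the isoforms and their counterparts was 0.130 or above. Signal over background is unknown here, so levels of isoform genes that pre-B cells may not transcribe cannot be told from background.

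The ATP synthase had 17 measured genes, 12 lower and 5 higher, with a median of -0.04 and 0 passing either the adjusted test or an unadjusted p of 0.05 in limma. Among the 8 genes of the catalytic head (F1) and the rotating c ring 7 were below 0, with a median of -0.07. Among the 9 of the stalk and the other membrane subunits 5 were below 0 and the median was -0.00. The groups of 3 genes did not overlap (17.6%, beside 22.5% of all genes), all 3 of them lower (15.5% of all genes were).

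Of the 2 subunits that form the catalytic hexamer, Atp5b was among the steadiest genes. It was at 14.24, 14.23 and 14.22 in ERT2 and 14.19, 14.17 and 14.18 in CRE-ERT2, with an SD of 0.01 in each group. The difference of -0.04 therefore separates all 6 arrays, but limma, which pools the spread over genes, gave an adjusted p of 0.854. Its partner Atp5a1 differed by -0.08 (adjusted p = 0.661), and Atp5pb, a subunit of the peripheral stalk, by -0.09 (adjusted p = 0.635). Both had groups that did not overlap. Atp5mpl, a small membrane subunit, differed by -0.10 with overlapping groups (adjusted p = 0.657).

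The c ring is built from a single mature protein that 3 genes encode, differing in their import sequences. Atp5g1 differed by -0.06, Atp5g3 by -0.10 (adjusted p = 0.630 by limma) and Atp5g2 by 0.10. Atp5g2 was at 13.29, 13.65 and 13.69 in ERT2 and 13.68, 13.67 and 13.59 in CRE-ERT2. Its positive estimate again came with a low ERT2 replicate 1, while the other 5 arrays lay within 13.59 to 13.69.

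Genes that build or feed the respiratory chain mostly had estimates below 0, and few passed the test. Over the assembly factors of complexes I to IV and the ATP synthase, the Ndufaf genes included, 49 genes were measured, 42 were below 0 and the median was -0.11. Of all genes 61.1% were below 0, with a median of -0.03. The count of 42 was 36 with quantile normalization and without replicate 3 of either group. It was 44 without replicate 1 of either group. Of the 49, 2 passed and were lower (4.08%, beside 4.58% of all genes called), namely Ndufaf1 and Acad9. In limma 14 of the 49 had an unadjusted p under 0.05, a larger share than the 16.4% of all genes. That count of 14 ran from 11 without CRE-ERT2 replicate 2 to 18 with array weights. The count of 2 was 0 over all probe sets and without CRE-ERT2 replicate 3. It was 1 without ERT2 replicate 1 (Ecsit) or CRE-ERT2 replicate 2 (Ndufaf1) and 4 without ERT2 replicate 3 or CRE-ERT2 replicate 1. It was 6 without the dimmest genes or with array weights, and 8 with the trended and robust variance. In the lists for complexes II, III, IV and the ATP synthase 0 of 32 genes passed in limma (7 at an unadjusted p under 0.05). Bcs1l, Coa5, Coa7 and Lrpprc passed, as lower, both without the dimmest genes and with the trended and robust variance, and Bcs1l, Coa7 and Lrpprc with array weights. The smallest p of each belonged to Sdhaf3 at -0.19 (adjusted p = 0.248), Bcs1l, which inserts the Rieske protein into complex III, at -0.29 (0.0597), Lrpprc, which stabilises mitochondrial messenger RNAs, at -0.34 (0.0536), and Atpaf1, a chaperone of the F1 beta subunit, at -0.25 (0.148).

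Coenzyme Q synthesis had 12 measured genes, with a median of -0.16. Of these 11 (91.7%) were below 0, beside 61.1% of all genes. The adjusted test in limma was passed by 0 of the 12, beside 4.58% of all genes. An unadjusted p under 0.05 was found for 5 (41.7%), beside 16.4% of all genes. That count of 5 was 1 without CRE-ERT2 replicate 3, 3 without replicate 2 of either group and 3 with quantile normalization. The smallest p was that of the methyltransferase Coq5, at -0.21 (adjusted p = 0.121, and 0.0490 with the trended and robust variance). The tricarboxylic acid cycle and pyruvate dehydrogenase, which supply NADH and succinate, had 23 measured genes, 20 of them below 0 with a median of -0.14. In this list 2 genes passed as lower and 1 as higher (13.0%, beside 4.58% of all genes). The groups of 16 genes (69.6%) did not overlap, beside 22.5% of all genes. The count of 3 calls was 1 over all probe sets and on leaving out any array other than ERT2 replicate 3, and 6 with the trended and robust variance.

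Dlst, the succinyl-transferring subunit of 2-oxoglutarate dehydrogenase, measured 11.88, 11.90 and 11.94 in ERT2 and 11.55, 11.50 and 11.42 in CRE-ERT2. The difference was -0.42 (adjusted p = 0.00425 in limma), and the gene passed in each of those 14 alternatives, with 0.0485 as the highest adjusted p. Suclg2, a subunit of succinyl-CoA ligase, fell by 0.34 (adjusted p = 0.0437), and Pdk2, a kinase that inactivates pyruvate dehydrogenase, rose by 0.28 (adjusted p = 0.0452). Both calls were lost under several alternatives, with adjusted p up to 0.221 for Suclg2 and 0.193 for Pdk2. Suclg2 lost its call on leaving out any array other than ERT2 replicate 3, and Pdk2 on leaving out any single array.

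**Figure D4:**
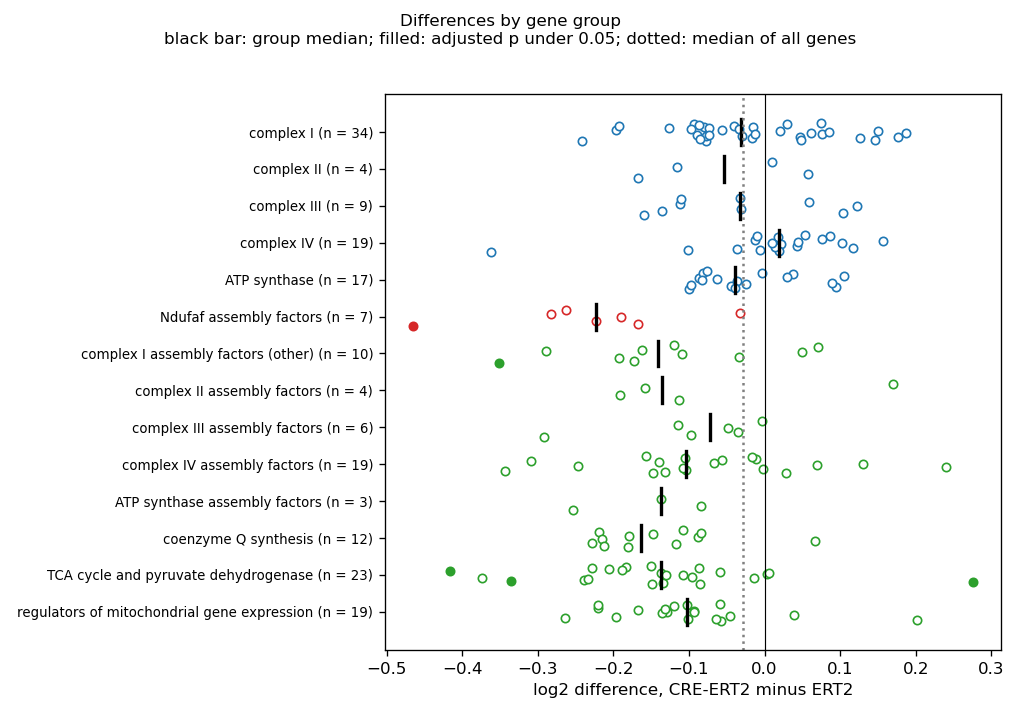
Log2 differences (CRE-ERT2 minus ERT2, horizontal axis) of single genes in the 5 complexes (blue), the Ndufaf assembly factors (red) and lists of related mitochondrial genes (green). Black bars are group medians: those of the complexes lie between -0.05 and 0.02, that of the Ndufaf genes at -0.22, and the dotted line is the median of all genes at -0.03.

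Genes of this kind have many processed pseudogenes, and a probe set may in part read a copy, which was not tested. For 17 members with more than 1 single-gene probe set there were 25 further probe sets. Of these, 23 had the same sign of difference as the probe set kept, and none of the 25 or of the 6 probe sets that members share with other genes passed the test over all probe sets (limma, 0 at an unadjusted p under 0.05).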

How the data were processed

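The authors deposited log2 expression values of 35556 probe sets for 3 ERT2 and 3 CRE-ERT2 arrays. The submitters' processing notes name RMA (background correction, normalization between arrays and summary of probes) and Partek 6.5 but do not say how each was used. That values are log2 was read from their range. The number of arrays limits the precision. Scan dates and detection calls were not used here, so batches were not tested.

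Each gene was read from its single-gene probe set (platform annotation), the one of highest mean value where there were several, giving 19938 genes, with no filter on dim ones. CRE-ERT2 and ERT2 were compared with two-sided tests of limma 3.58.1 (lmFit, then eBayes; R 4.3.3), using no covariate. Adjustment of p was by Benjamini-Hochberg over all 19938 genes, with a threshold of 0.05. The fit was tested on simulated data. Groups and replicate numbers come from the sample titles.

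Members and lists were chosen with earlier results of these data known. Named by rule were members that passed, the 4 smallest p of each complex and of the Ndufaf genes, complex II, paralogue sets, and in each other list up to 3 passing genes or the smallest p. Ndufa1, Ndufb3, Ndufb6, Ndufaf2, Ndufaf3, Ndufaf7, Uqcrb, Uqcr10, Uqcr11, Atp5b, Coa5, Coa7, Ecsit, Timmdc1, Tmem126b and Tmem186 were added after their values were seen. Alternatives were quantile normalization, median centring, leaving out the dimmest 33.3% of genes, mean of probe sets, all probe sets, array weights, trended and robust variance, a block for the replicate number, a log2 change of at least 0.5, and each array left out in turn. Counts for lists under these alternatives were added after seeing the data.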

Additional observations from a re-analysis of the deposited data

How the results depend on the processing

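The count of all genes called was 914, and 254 when all probe sets were tested, 1544 with a trended and robust variance, 316 with a minimum log2 change of 0.5 and 453 to 979 on leaving out each array. Members called lower numbered 1, and 0 when all probe sets were tested, 4 with a trended and robust variance (Ndufa10, Ndufaf1, Ndufaf4 and Ndufs1), 0 with the minimum change and 0 to 2 on leaving out each array, with 0 called higher throughout (limma). Leaving out ERT2 replicate 1 or CRE-ERT2 replicate 3 gave 0 members called, and leaving out ERT2 replicate 3 gave 2 (Ndufaf1 and Ndufaf5). The members' median stayed between -0.06 and 0.01. With quantile normalization 543 genes were called higher and 349 lower, against 459 and 455, so the balance of directions over all genes depends on scaling. Among 517 values of 37 named members under the alternatives, 3 lost and 4 gained a call. Of these members only Ndufaf1 was called in the reported comparison, so the others say little about stability, and 28 uncalled values changed sign. The replicate block gave 589 genes and 1 member called, with Ndufaf1 at an adjusted p of 0.0108. Same-numbered arrays had correlations of deviations from the group means of -0.114, -0.372 and -0.0719. ERT2 replicate 2 correlated best with CRE-ERT2 replicate 1 (0.449). Such deviations balance out within each group for every gene, so these values cannot decide whether same-numbered samples are paired. Without signal over background, dim genes limit what can be detected.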

Other observations

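Among 20 regulators of mitochondrial gene expression, 19 were measured, and 17 (89.5%) had estimates below 0, beside 61.1% of all genes. Their median was -0.10, beside -0.03 for all genes. Of the 19, 0 passed the adjusted test in limma, beside 4.58% of all genes. An unadjusted p under 0.05 was found for 5 (26.3%), beside 16.4% of all genes. That count of 5 was 2 with quantile normalization and 3 with median centring or without replicate 3 of either group. The smallest p was that of Tfb1m, which encodes a methyltransferase of mitochondrial ribosomal RNA, with a difference of -0.26 (adjusted p = 0.0744). The adjusted p of this gene in limma was 0.0393 without the dimmest genes and 0.0216 with the trended and robust variance. Tfb1m measured 11.38, 11.29 and 11.25 on ERT2 replicates 1 to 3 and 11.12, 10.95 and 11.05 on CRE-ERT2 replicates 1 to 3, so the groups did not overlap. Of 7 names of cytochrome c and other ATP synthase proteins, 4 were measured genes outside the members, with a median of 0.02 and 0 called (limma, 0 at an unadjusted p under 0.05). The remaining names stand for Atp5md and Atp5mpl, which are counted among the members. The smallest p of that list was that of Atpif1, the inhibitor of ATP synthase hydrolysis, at -0.09 (adjusted p = 0.637). The 13 subunits encoded in mitochondrial DNA were not analysed here.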
